A study of Mus musculus with 11 samples.

Results

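The p53 targets Cdkn1a, Trp53inp1, Mdm2 and Ccng1 and the GADD45 genes Gadd45a, Gadd45b and Gadd45g were followed across 4 groups of mouse epiblast stem cells (EpiSCs). They were chosen by gene symbol, with earlier results of these data known. Every probe of a symbol was used, which gave 15 probes of 7 genes out of 15718 probes and 9201 gene symbols. Trp53 itself was also asked for, and its transcript is not analysed here. Cdkn1a and Ccng1 had 3 probes each, Trp53inp1, Mdm2, Gadd45a and Gadd45g had 2 each and Gadd45b had 1, so probes of one gene report on the same transcript and are not replicates.

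EpiSCs are pluripotent cells that resemble the postimplantation epiblast. All groups were of the 129xMF1 strain and were grown in N2B27 with Activin and Fgf. GY118F EpiSCs carried the transgene GY118F, a receptor whose outer part binds G-CSF and whose inner part is that of gp130 with the Shp2-recruiting tyrosine replaced, so that G-CSF switches on STAT3 in these cells. The groups were GY118F EpiSCs without G-CSF (n = 3), GY118F EpiSCs after 3 hours with G-CSF (n = 2), control EpiSCs without G-CSF (n = 3) and control EpiSCs after 3 hours with G-CSF (n = 3). The labels give the control cells no transgene, do not say whether either line is a single clone, and name no group given carrier alone. They do not say that replicates were separate cultures, so a p-value here measures only how far these samples spread, and that may be technical spread.

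p53 is a transcription factor that DNA damage and other stresses stabilise. It binds pairs of a short half-site and switches on genes that halt the cell cycle, repair DNA, change metabolism or kill the cell, and among them is Mdm2, which marks p53 for degradation and so closes a feedback loop. The GADD45 proteins are small nuclear proteins that bind cyclin-dependent kinase 1, PCNA, p21 and the kinase MTK1, and Gadd45a is a direct p53 target. In Xenopus embryos Gadd45a and Gadd45g are needed for cells to leave pluripotency.

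Start-site windows of the members are shown because most of them hold the letters of the half-site to which p53 binds. A window covered 250 bases before to 50 bases after a RefSeq start site (GRCm38.p6), and 7 of the 8 genes asked for had 8 windows. The p53 half-site was found in 5 of these 8 windows and in 8.36% of all 32851 windows, and a full site, with 2 half-sites at most 13 bases apart, in 1 of 8 and in 0.0731%. The letters TTCNNNGAA, to which STAT proteins bind, were found in 0 of 8 windows and in 8.30% of all. Both motifs were searched on both strands, and a match describes these letters and is not a measured site. The sequences run 5′ to 3′ on the strand of the gene, with p53 half-sites in capitals.
Cdkn1a, chr17:29090729-29091028, plus strand: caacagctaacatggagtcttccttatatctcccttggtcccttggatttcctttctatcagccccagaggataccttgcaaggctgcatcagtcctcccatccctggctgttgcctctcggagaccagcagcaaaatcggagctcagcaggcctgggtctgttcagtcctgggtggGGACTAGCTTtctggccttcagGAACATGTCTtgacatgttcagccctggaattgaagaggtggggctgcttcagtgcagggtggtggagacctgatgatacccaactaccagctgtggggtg
Gadd45g, chr13:51846425-51846724, plus strand: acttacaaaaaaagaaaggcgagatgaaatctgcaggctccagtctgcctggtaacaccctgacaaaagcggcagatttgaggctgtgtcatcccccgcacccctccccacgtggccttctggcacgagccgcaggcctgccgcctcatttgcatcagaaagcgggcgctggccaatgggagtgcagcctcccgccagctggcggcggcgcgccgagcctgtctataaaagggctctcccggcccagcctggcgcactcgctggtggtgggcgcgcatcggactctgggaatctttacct
Mdm2, chr10:117710915-117710964, minus strand: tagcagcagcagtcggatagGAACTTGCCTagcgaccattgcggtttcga
Ccng1, chr11:40755442-40755491, minus strand: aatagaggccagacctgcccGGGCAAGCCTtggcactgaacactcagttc
Gadd45a, chr6:67037418-67037467, minus strand: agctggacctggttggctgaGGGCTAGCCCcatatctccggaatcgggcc
The Cdkn1a window, at the more upstream of its windows, holds the full site, whose half-sites lie 73 to 64 and 51 to 42 bases before the start with 12 bases between them. The Gadd45g window holds neither motif and is shown whole because Gadd45g differed most between the lines. For Mdm2, Ccng1 and Gadd45a the 50 bases around the half-site are shown, which begins 186, 185 and 40 bases before the start, respectively. The fifth window with a half-site was that of Trp53.

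Values are the deposited ones, on a log2-like scale, and a difference of 2 values is called a log2 change. Whether this scale is plain log2 is not stated, and folds are given as if it were. They ran from 7.11 to 15.22 over all probes, with a median of 8.16 and a 25th percentile of 7.62, and no depth or detection p-value comes with them. Arrays of one group correlated at 0.994 to 0.998 over probes and arrays of different groups at 0.960 to 0.982. The STAT3 targets that check the treatment responded in GY118F EpiSCs: Socs3, a feedback inhibitor of STAT3, rose by 3.00 ± 0.05 (SE), Stat3 by 2.04 ± 0.09 (SE) and the AP-1 gene Junb by 1.48 ± 0.05 (SE). In control EpiSCs Socs3 fell by 0.17 ± 0.04 (SE), and the changes of Stat3 and Junb were -0.17 and -0.13 and did not pass the test. All 9 listed EpiSC markers were measured, and their mean level per array lay between 9.88 and 10.09 in GY118F EpiSCs and between 10.38 and 10.62 in control EpiSCs. Of these 9 markers 5 were lower, 1 was higher and 3 were not called in unstimulated GY118F EpiSCs against unstimulated control EpiSCs. Of all genes 17.1% were lower and 17.6% higher in this comparison. The median difference of the 9 markers was -0.46, beside 0.01 for all genes, and the homeobox gene Otx2 stood at -2.09 ± 0.07 (SE). Of 8 naive pluripotency and 8 fibroblast markers 3 each were measured, with means per array of 7.61 to 7.87 and 7.57 to 7.82. Of 7 endoderm markers 3 were measured, with means of 7.31 to 7.38 in GY118F and 7.57 to 7.79 in control EpiSCs. Of 6 trophoblast markers Cdx2 and Krt7 were measured, with a mean per array of 7.63 to 7.71 without and 7.83 to 7.94 with G-CSF in GY118F EpiSCs, and of 7.40 to 7.44 without and 7.92 to 8.05 with it in control EpiSCs. Cdx2 rose by 0.46 ± 0.07 (SE) and 1.23 ± 0.07 (SE), respectively, and the changes of Krt7, at -0.04 and -0.07, did not pass the test. Of 6 neural markers Nes was measured and rose by 0.44 ± 0.09 (SE) in GY118F and 0.40 ± 0.08 (SE) in control EpiSCs, and 0 of 6 haematopoietic markers were measured. The part of these marker changes and differences in the changes after G-CSF and in the differences between the lines was not tested.

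Across the members, Cdkn1a and Mdm2 by each of their probes and Ccng1 by 2 of its 3 probes rose with G-CSF in both lines. Without G-CSF, GY118F EpiSCs stood below control EpiSCs by each probe of Cdkn1a and Mdm2 and by 1 of 3 probes of Ccng1. Of the 15 member probes 10 rose and 0 fell in GY118F EpiSCs by limma's adjusted p (Benjamini-Hochberg, under 0.05), and 12 were higher and 0 lower at an unadjusted p under 0.05. Of all probes 17.6% rose and 19.5% fell in this comparison by the adjusted p, and 21.8% were higher and 23.6% lower by the unadjusted p. In control EpiSCs 11 member probes rose and 2 fell, where 19.8% of all probes rose and 20.5% fell. The median log2 change of the member probes was 0.31 in GY118F and 0.32 in control EpiSCs, beside -0.00 and 0.01 for all probes. The difference between the responses of the lines was called for 2 of 15 member probes, both higher in GY118F EpiSCs, where 3.18% of all probes were called higher and 1.71% lower. They belong to Gadd45a and Gadd45g.

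**Figure D1:**
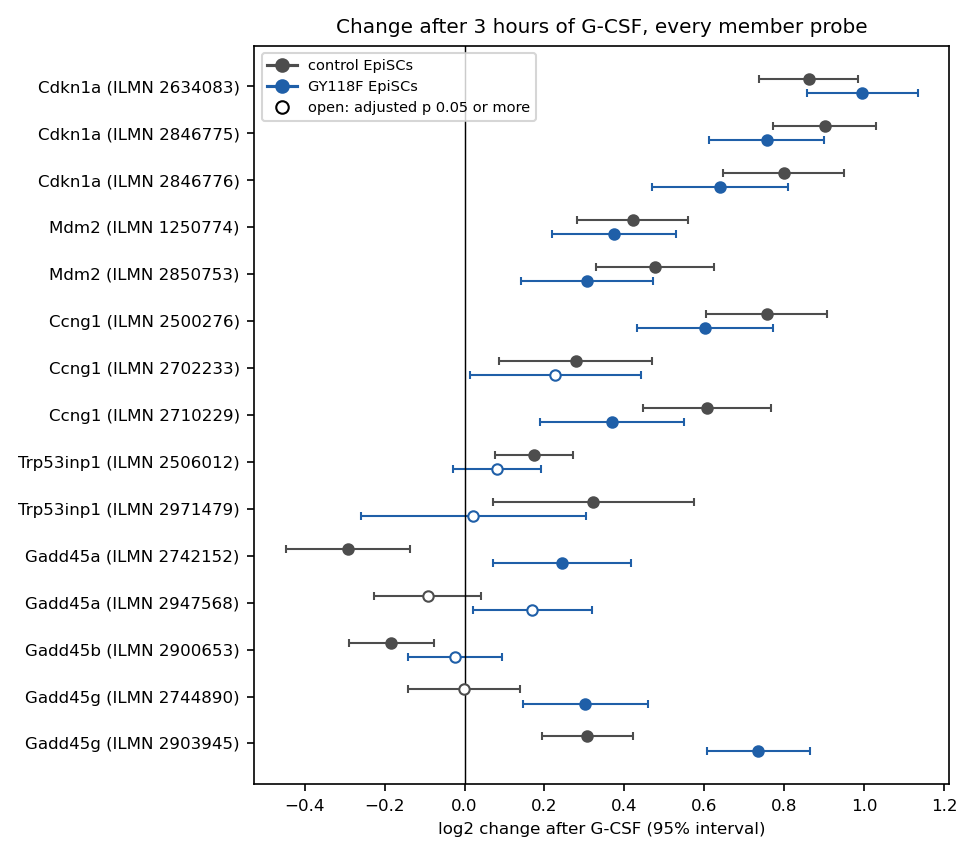
Log2 change after 3 hours of G-CSF (horizontal axis) for each of the 15 member probes, with 95% intervals from limma, in control EpiSCs (grey) and GY118F EpiSCs (blue). Filled points have an adjusted p under 0.05. The Cdkn1a, Mdm2 and Ccng1 probes lie to the right of 0 in both lines, while the brighter Gadd45a probe lies at -0.29 in control and 0.24 in GY118F EpiSCs.

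Cdkn1a encodes p21, the inhibitor of cyclin-dependent kinases through which p53 halts the cell cycle. Its brightest probe (ILMN_2634083) read 9.05, 8.96 and 9.04 in unstimulated GY118F EpiSCs, 10.04 and 9.98 with G-CSF, 9.92, 9.98 and 10.15 in unstimulated control EpiSCs and 10.87, 10.86 and 10.90 in control EpiSCs with G-CSF. In each line the arrays with G-CSF were all above those without, and the stimulated GY118F arrays lay within the span of the unstimulated control arrays. The log2 change after G-CSF was 0.99 ± 0.06 (SE) in GY118F EpiSCs, a 1.99-fold rise (limma adjusted p = 2.37e-07), and 0.86 ± 0.06 (SE) in control EpiSCs, a 1.82-fold rise (limma adjusted p = 2.12e-07).

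The rise in GY118F exceeded that in control EpiSCs by 0.13 for this probe, with a 95% interval from -0.05 to 0.32 (limma adjusted p = 0.505). The other probes gave differences of -0.15 (interval -0.34 to 0.05) and -0.16 (interval -0.39 to 0.07), so no difference in the response was called and the sign of the estimate depended on the probe. Unstimulated GY118F EpiSCs stood below unstimulated control EpiSCs by 1.00 ± 0.06 (SE) on the log2 scale, or 2.00-fold (limma adjusted p = 4.79e-08). With G-CSF in both lines the GY118F cells remained lower, at -0.86 ± 0.06 (SE).

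The second Cdkn1a probe (ILMN_2846775) read 8.01, 7.89 and 8.05 in unstimulated and 8.66 and 8.81 in stimulated GY118F EpiSCs, and 8.44, 8.46 and 8.44 in unstimulated and 9.41, 9.25 and 9.39 in stimulated control EpiSCs. The dimmest (ILMN_2846776) read 7.49, 7.57 and 7.65, then 8.11 and 8.31, then 8.12, 7.98 and 8.03, then 8.91, 8.71 and 8.90 in the same order. All 3 probes put unstimulated GY118F EpiSCs lowest and stimulated control EpiSCs highest. The gap between the unstimulated lines was smaller by these probes, at -0.47 each. Whether stimulated GY118F EpiSCs reached or passed the unstimulated control level depended on the probe: the difference lay between -0.14 and 0.14 (95% interval) for ILMN_2634083, was 0.29 ± 0.07 (SE) for ILMN_2846775 (limma adjusted p = 0.00316) and 0.17 ± 0.08 (SE) for ILMN_2846776 (limma adjusted p = 0.0991). The middle call was lost without stimulated GY118F replicate 3 (0.21, limma adjusted p = 0.0513), and the last difference became 0.27 and called without stimulated GY118F replicate 2 (limma adjusted p = 0.0342).

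Mdm2, the ubiquitin ligase that p53 induces and that degrades p53, followed the order of Cdkn1a with smaller steps. Probe ILMN_1250774 read 10.20, 10.15 and 10.15 in unstimulated and 10.67 and 10.40 in stimulated GY118F EpiSCs, and 10.54, 10.52 and 10.60 in unstimulated and 10.97, 10.91 and 11.05 in stimulated control EpiSCs. The unstimulated control arrays fell between both stimulated GY118F arrays. The change after G-CSF was 0.37 ± 0.07 (SE) in GY118F EpiSCs (1.30-fold, limma adjusted p = 0.00132) and 0.42 ± 0.06 (SE) in control EpiSCs (1.34-fold, limma adjusted p = 0.000208), and the difference of -0.05 had an interval from -0.26 to 0.16. The unstimulated lines differed by -0.39 ± 0.06 (SE), which is about the size of the G-CSF change.

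The other Mdm2 probe (ILMN_2850753) read 9.50, 9.61 and 9.67, then 9.79 and 10.00 in GY118F EpiSCs without and with G-CSF, and 10.01, 9.95 and 10.02, then 10.51, 10.35 and 10.54 in control EpiSCs. It rose by 0.31 ± 0.08 (SE) in GY118F (limma adjusted p = 0.00696) and by 0.48 ± 0.07 (SE) in control EpiSCs. The rise in GY118F EpiSCs was 0.20 and was not called without stimulated GY118F replicate 3 (limma adjusted p = 0.106). For ILMN_1250774 leaving out 1 array moved the GY118F rise between 0.24 and 0.51, and it stayed called. Both probes gave the order unstimulated GY118F, then stimulated GY118F and unstimulated control, then stimulated control, and the middle groups did not differ beyond their spread (limma adjusted p = 0.877 and 0.337).

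Ccng1 encodes cyclin G1, a p53 target that recruits a phosphatase to Mdm2. Its brightest probe (ILMN_2710229) read 10.90, 10.79 and 10.93 in unstimulated and 11.30 and 11.18 in stimulated GY118F EpiSCs, and 11.13, 11.15 and 11.40 in unstimulated and 11.92, 11.76 and 11.82 in stimulated control EpiSCs. Stimulated arrays again lay above unstimulated ones within each line. It rose by 0.37 ± 0.08 (SE) in GY118F (limma adjusted p = 0.00365) and by 0.61 ± 0.07 (SE) in control EpiSCs (limma adjusted p = 3.53e-05), and the difference of -0.24 (interval -0.48 to 0.00) was not called (limma adjusted p = 0.309).

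The probes of Ccng1 gave different pictures of the lines. By ILMN_2710229 unstimulated GY118F EpiSCs were lower by 0.35 ± 0.07 (SE). By ILMN_2702233 the difference was -0.24 ± 0.09 (SE) and was not called (limma adjusted p = 0.0569). That difference was called with a replicate block by title numbers, cyclic loess normalization, trend and robust moderation, or array weights. Leaving out 1 array moved it between -0.33 and -0.14 (limma adjusted p up to 0.244). It was called without unstimulated control replicate 2 (limma adjusted p = 0.0141) and without stimulated GY118F replicate 2 or 3 (limma adjusted p = 0.0418 each). Probe ILMN_2500276 read 10.82, 10.69 and 10.76 in unstimulated GY118F and 10.76, 10.81 and 10.71 in unstimulated control EpiSCs, and the difference lay between -0.15 and 0.15 (95% interval). After G-CSF it read 11.44 and 11.28 in GY118F and 11.37, 11.52 and 11.66 in control EpiSCs, rises of 0.60 ± 0.08 (SE) and 0.76 ± 0.07 (SE). These groups overlapped between the lines and did not overlap between the treatments. Probe ILMN_2702233 changed by 0.23 ± 0.10 (SE) in GY118F EpiSCs, which did not pass the test (limma adjusted p = 0.0887), and rose by 0.28 ± 0.09 (SE) in control EpiSCs (limma adjusted p = 0.0231). That rise lost its call under a floor at the 25th percentile, to which all lower values were raised, and without unstimulated control replicate 1 or 2 or stimulated control replicate 2 (limma adjusted p up to 0.104). This probe itself lay above the floor and its rise stayed 0.28, so only the test, which draws on all probes, changed. Leaving out 1 array moved the GY118F change between 0.11 and 0.35, and it was called without stimulated GY118F replicate 3 (limma adjusted p = 0.0397) and without unstimulated control replicate 3 (limma adjusted p = 0.0383). With G-CSF in both lines this probe was lower in GY118F EpiSCs by 0.29 (limma adjusted p = 0.0445), a call that was lost without most single arrays (limma adjusted p up to 0.343).

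Trp53inp1 encodes a nuclear protein that helps the kinase HIPK2 act on p53 and that also binds ATG8 proteins in autophagy. By its brightest probe it differed between the lines, as Cdkn1a and Mdm2 did, but unlike them it changed little with G-CSF. Probe ILMN_2506012 read 9.48, 9.42 and 9.42 in unstimulated and 9.57 and 9.47 in stimulated GY118F EpiSCs, and 10.10, 10.14 and 10.05 in unstimulated and 10.25, 10.28 and 10.28 in stimulated control EpiSCs. No GY118F array reached any control array, and the GY118F arrays with and without G-CSF overlapped.

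Unstimulated GY118F EpiSCs stood at -0.65 ± 0.05 (SE) against control, or 1.57-fold lower (limma adjusted p = 2.56e-07), and stimulated GY118F EpiSCs at -0.75 ± 0.05 (SE), or 1.68-fold lower (limma adjusted p = 3.51e-07). The change after G-CSF was 0.08 in GY118F EpiSCs, with an interval from -0.03 to 0.19 (limma adjusted p = 0.232), and 0.17 ± 0.05 (SE) in control EpiSCs (limma adjusted p = 0.00834). These changes were not shown to differ (difference -0.09, interval -0.24 to 0.06). The dimmer probe (ILMN_2971479) read 7.59, 7.63 and 7.73, then 7.60 and 7.75 in GY118F EpiSCs without and with G-CSF, and 7.76, 7.99 and 7.67, then 7.81, 8.25 and 8.32 in control EpiSCs. By this probe the unstimulated lines overlapped, at -0.15 ± 0.12 (SE), and a line difference was called with G-CSF, at -0.45 ± 0.13 (SE). The latter call (limma adjusted p = 0.0195) was lost under the floor, with trend and robust moderation, with only the groups compared, and without stimulated GY118F replicate 2 or stimulated control replicate 2 or 3 (limma adjusted p up to 0.146). Its rise of 0.32 in control EpiSCs was called although the arrays overlapped, and leaving out 1 array moved it between 0.23 and 0.48, with the call lost without unstimulated GY118F replicate 1 or 2, unstimulated control replicate 1 or 3, or stimulated control replicate 2 or 3 (limma adjusted p up to 0.17).

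**Figure D2:**
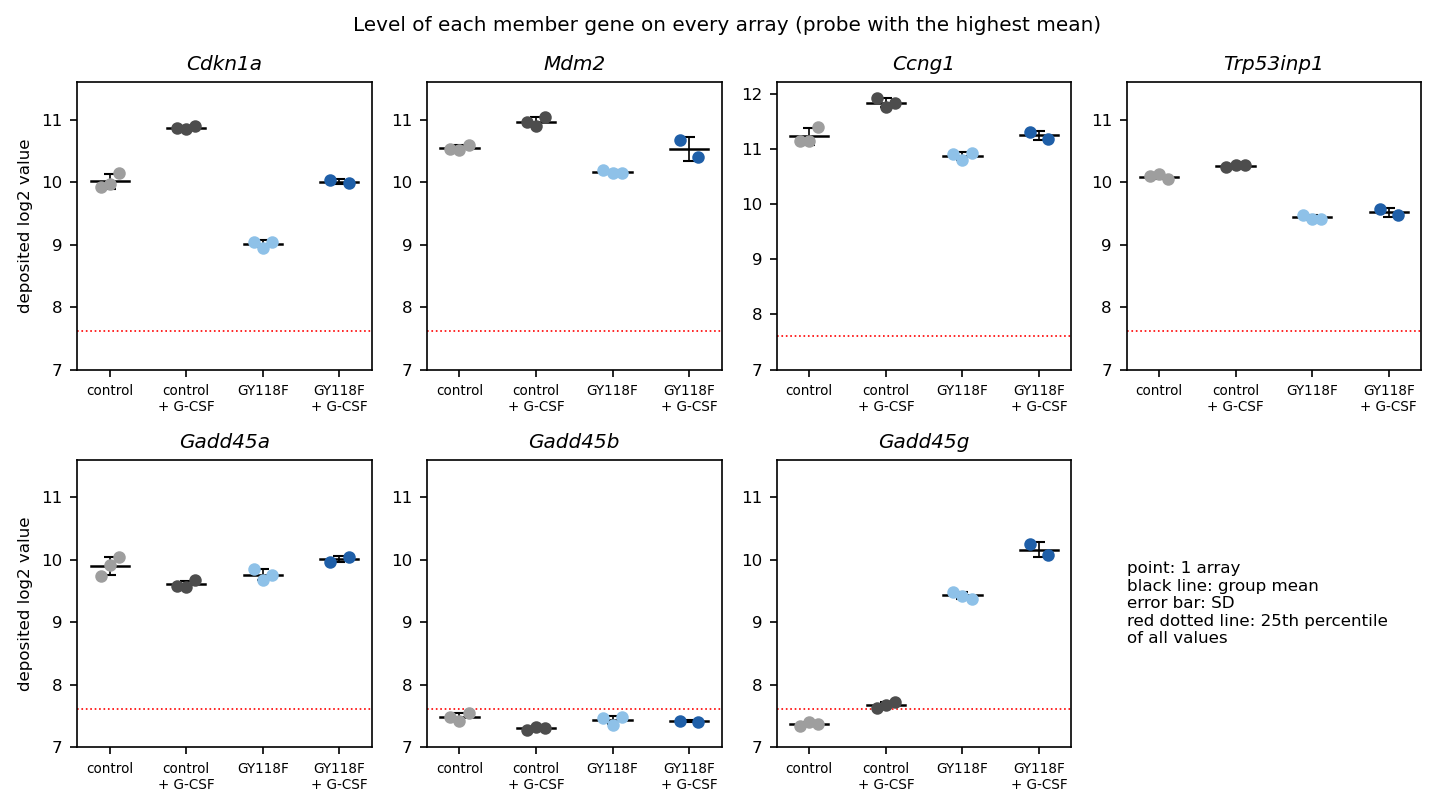
Deposited log2-like value of the brightest probe of each member gene on each of the 11 arrays, by group (points), with the group mean (black line) and SD (error bar). The red dotted line is the 25th percentile of all values, at 7.62. Cdkn1a, Mdm2 and Ccng1 form steps in both lines, Trp53inp1 separates the lines, and Gadd45g is at 7.37 in unstimulated control and 9.43 in unstimulated GY118F EpiSCs.

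Gadd45g, the family member that cytokines and differentiation signals are known to induce, ran opposite to the p53 targets between the lines. Probe ILMN_2903945 read 9.49, 9.42 and 9.38 in unstimulated and 10.25 and 10.08 in stimulated GY118F EpiSCs, against 7.34, 7.40 and 7.37 in unstimulated and 7.64, 7.68 and 7.72 in stimulated control EpiSCs. No groups overlapped, and the unstimulated control arrays were all below the 25th percentile. Unstimulated GY118F EpiSCs were higher by 2.06 ± 0.05 (SE), or 4.16-fold (limma adjusted p = 2.3e-11), and with G-CSF in both lines the difference was 2.49 ± 0.06 (SE), or 5.60-fold (limma adjusted p = 1.92e-11). With the floor at the 25th percentile the unstimulated difference was 1.81, or 3.51-fold, and was called (limma adjusted p = 4.74e-07), so its size depends on values of the control arrays for which no detection p-value was given.

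After G-CSF Gadd45g rose by 0.74 ± 0.06 (SE) in GY118F EpiSCs (1.66-fold, limma adjusted p = 1.48e-06) and by 0.31 ± 0.05 (SE) in control EpiSCs (limma adjusted p = 0.000503). The rise in GY118F EpiSCs was larger by 0.43 ± 0.08 (SE), with an interval from 0.26 to 0.60 (limma adjusted p = 0.00664). With the floor the rise in control EpiSCs was 0.06 and was not called (limma adjusted p = 0.385), and the difference between the responses was 0.67 and was called. The order of the levels was therefore unstimulated control, stimulated control, unstimulated GY118F and stimulated GY118F, with each step called and the step between the control groups dependent on that floor.

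The dimmer Gadd45g probe (ILMN_2744890) read 7.66, 7.74 and 7.59 in unstimulated and 8.07 and 7.86 in stimulated GY118F EpiSCs, and 7.34, 7.21 and 7.16 in unstimulated and 7.26, 7.22 and 7.22 in stimulated control EpiSCs. All control arrays were under the 25th percentile by this probe. It put unstimulated GY118F EpiSCs higher by 0.43 ± 0.06 (SE), which fell to 0.06 under the floor and was then not called (limma adjusted p = 0.575). Its rise of 0.30 ± 0.07 (SE) in GY118F EpiSCs was not called without stimulated GY118F replicate 2 (0.20, limma adjusted p = 0.0871), and its change of -0.00 ± 0.06 (SE) in control EpiSCs did not pass the test. The difference of 0.30 between the responses was not called either (limma adjusted p = 0.11).

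Gadd45a, the family member whose induction by DNA damage runs through p53, moved in opposite directions in the lines. Probe ILMN_2742152 read 9.86, 9.67 and 9.76 in unstimulated and 9.97 and 10.04 in stimulated GY118F EpiSCs, and 9.75, 9.91 and 10.04 in unstimulated and 9.58, 9.56 and 9.68 in stimulated control EpiSCs. The unstimulated groups overlapped, the stimulated GY118F arrays lay above their unstimulated arrays, and the stimulated control arrays lay below theirs. It rose by 0.24 ± 0.08 (SE) in GY118F EpiSCs (limma adjusted p = 0.0295) and fell by 0.29 ± 0.07 (SE) in control EpiSCs (limma adjusted p = 0.00553), and the difference was 0.54 ± 0.11 (SE), with an interval from 0.30 to 0.77 (limma adjusted p = 0.011). The rise in GY118F EpiSCs lost its call without unstimulated GY118F replicate 2 or 3, without stimulated GY118F replicate 2 or 3 (limma adjusted p up to 0.159) and under the floor (limma adjusted p = 0.0752). All values of this probe lay above the floor and its rise stayed 0.24, so there only the test changed. The difference between the responses stayed called without any 1 array, between 0.47 and 0.61, with an adjusted p of at most 0.0486 from limma.

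In level, stimulated control EpiSCs were lowest for Gadd45a at 9.61 ± 0.06 (SD, n = 3), then unstimulated GY118F at 9.76 ± 0.09 (SD, n = 3), unstimulated control at 9.90 ± 0.15 (SD, n = 3) and stimulated GY118F at 10.01 ± 0.05 (SD, n = 2). Neighbours in this order did not differ beyond their spread (limma adjusted p = 0.0861, 0.189 and 0.291 from the lowest up), and the stimulated lines differed by 0.40 ± 0.08 (SE) (limma adjusted p = 0.00221). The other probe (ILMN_2947568) read 9.26, 9.11 and 9.19, then 9.33 and 9.39 in GY118F EpiSCs without and with G-CSF, and 9.18, 9.21 and 9.37, then 9.07, 9.18 and 9.22 in control EpiSCs. Its changes of 0.17 and -0.09 had the same signs, and neither they nor their difference of 0.26 (interval 0.06 to 0.46) passed the test (limma adjusted p = 0.0721, 0.262 and 0.151).

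Gadd45b, known as an early gene of TGF-beta and NF-kappaB signalling, was read by 1 probe that was under the 25th percentile on all 11 arrays. It read 7.47, 7.36 and 7.48 in unstimulated and 7.43 and 7.40 in stimulated GY118F EpiSCs, and 7.49, 7.42 and 7.55 in unstimulated and 7.28, 7.33 and 7.31 in stimulated control EpiSCs. The change of -0.18 ± 0.05 (SE) in control EpiSCs was called (limma adjusted p = 0.00914) and is a change among the dimmest values, which is 0 under the floor.

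Between the unstimulated lines 2 of the 15 member probes were higher and 7 lower in GY118F EpiSCs, where 15.2% of all probes were higher and 15.2% lower. The higher probes were both of Gadd45g, and the lower ones were all 3 of Cdkn1a, both of Mdm2 and 1 each of Ccng1 and Trp53inp1. With G-CSF in both lines 4 were higher, those of Gadd45a and Gadd45g, and 9 lower, where 13.9% of all probes were higher and 13.4% lower. Among the 4 was the dimmer Gadd45a probe at 0.20 (limma adjusted p = 0.0496), whose call was lost with a replicate block by the source-name numbers, the floor, array weights, trend and robust moderation, or only the groups compared, and without most single arrays (limma adjusted p up to 0.21). Its values lay above the floor, under which its difference stayed 0.20. The median difference of the member probes was -0.24 without and -0.44 with G-CSF, beside 0.00 and -0.01 for all probes. These comparisons share their samples with the G-CSF comparisons.

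**Figure D3:**
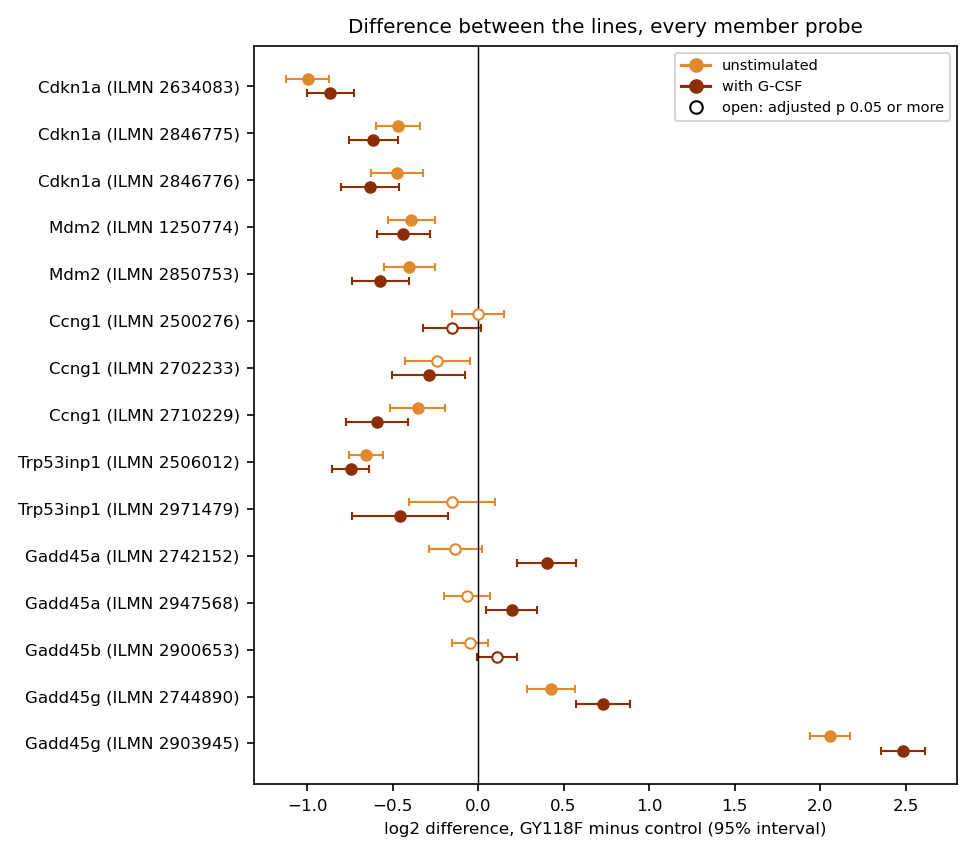
Log2 difference of GY118F minus control EpiSCs (horizontal axis) for each of the 15 member probes, with 95% intervals from limma, without G-CSF (orange) and with G-CSF (brown). Filled points have an adjusted p under 0.05. Cdkn1a, Mdm2 and Trp53inp1 probes lie left of 0 and the brighter Gadd45g probe lies at 2.06 and 2.49.

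The study sought genes that rose by more than 1.4-fold at p under 0.01 with G-CSF in GY118F EpiSCs and did not change significantly in control EpiSCs. Of all probes 579 rose by that measure (limma adjusted p) and 151, or 0.961%, also met the condition on the control. Among them were 5 and 0 member probes, respectively. The 5 that rose were the 3 Cdkn1a probes, Ccng1 ILMN_2500276 and Gadd45g ILMN_2903945, and each was also called in control EpiSCs. The count of member probes that met the criterion was also 0 with unadjusted p and with a control adjusted p of 0.05 or more. Neither setting could let in any of these 5, whose control adjusted p was already under 0.01. Under the floor Gadd45g ILMN_2903945 rose by 0.74 in GY118F EpiSCs (limma adjusted p = 6.53e-05). Its change in control EpiSCs was then 0.06 and not called (limma adjusted p = 0.385), so it met the criterion under the floor.

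Other p53 targets were listed in 3 groups, of which 31 of 40 genes were measured, each by its brightest probe. After G-CSF 9 rose and 10 fell in GY118F EpiSCs, and 16 rose and 8 fell in control EpiSCs. Of all 9201 genes 18.4% rose and 22.9% fell in GY118F EpiSCs, and 19.9% rose and 24.0% fell in control EpiSCs. These shares also stand beside the counts of each of the 3 groups below. The listed targets had a median log2 change of 0.01 in GY118F and 0.17 in control EpiSCs, beside -0.01 and -0.00 for all genes. The difference of the responses was called for 2 of the 31, Rprm upward and Ak1 downward in GY118F EpiSCs, where 3.89% of all genes were called upward and 2.18% downward.

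Among 13 arrest and repair genes 3 rose and 5 fell in GY118F EpiSCs, and 7 rose and 3 fell in control EpiSCs. Rprm, an inhibitor of entry into mitosis, rose by 0.97 ± 0.06 (SE) in GY118F and by 0.60 ± 0.06 (SE) in control EpiSCs, and the difference of 0.38 ± 0.08 (SE) was called (limma adjusted p = 0.0218). The polo-like kinase Plk2 rose by 0.76 and 0.71 and the ubiquitin ligase subunit Fbxw7 by 0.53 and 0.31 in GY118F and control EpiSCs, respectively. The nucleotide excision repair genes Xpc and Ddb2 fell in both, with changes of -0.39 and -0.36 for Xpc and -0.29 and -0.34 for Ddb2.

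Among 11 cell death genes 5 rose and 2 fell in GY118F, and 6 rose and 2 fell in control EpiSCs. Bbc3, which encodes the death inducer PUMA, changed by -0.95 ± 0.07 (SE) in GY118F and -1.08 ± 0.07 (SE) in control EpiSCs, opposite to Cdkn1a. Apaf1, which nucleates the apoptosome, fell as well, by 0.42 and 0.24. Rises were called for the nuclease gene Aen (0.38 and 0.33), for Phlda3, an inhibitor of Akt (0.34 and 0.72), and for Ei24 (0.34 and 0.40).

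Among 7 metabolism and stress genes 1 rose and 3 fell in GY118F, and 3 rose and 3 fell in control EpiSCs. Ddit4, the mTORC1 inhibitor REDD1, changed by -2.20 ± 0.09 (SE) in GY118F and -2.27 ± 0.08 (SE) in control EpiSCs. The sestrin genes, which also restrain mTORC1, fell in both lines, with changes of -0.92 and -0.94 for Sesn1 and -0.73 and -0.43 for Sesn2. The adenylate kinase gene Ak1 changed by -0.05 in GY118F EpiSCs, which did not pass the test, and rose by 0.45 ± 0.06 (SE) in control EpiSCs, and the difference of -0.50 was called (limma adjusted p = 0.00419).

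**Figure D4:**
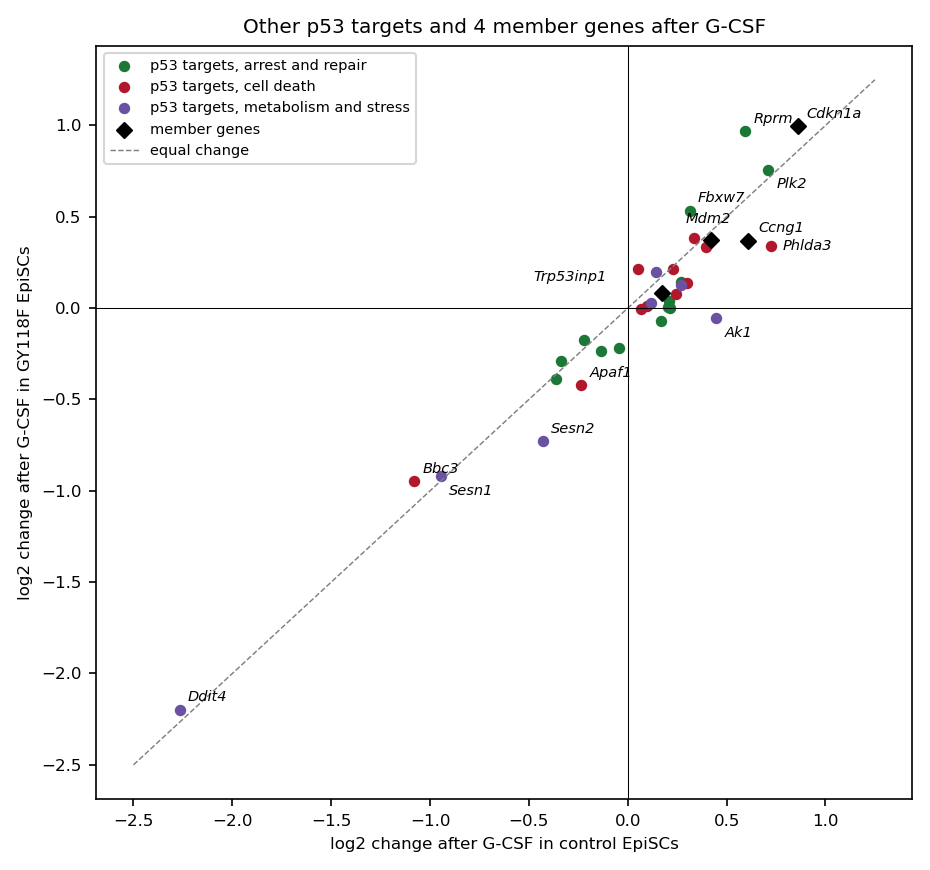
Log2 change after G-CSF in control EpiSCs (horizontal axis) and in GY118F EpiSCs (vertical axis) for the 31 other p53 targets measured, coloured by list, and for the 4 member genes that are p53 targets outside the GADD45 family (black diamonds), 1 probe a gene. The dashed line marks equal change. Ddit4 lies at -2.27 and -2.20, Bbc3 at -1.08 and -0.95, and Cdkn1a at 0.86 and 0.99.

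Between the unstimulated lines 4 of the 31 p53 targets were higher and 11 lower in GY118F EpiSCs, where 17.6% of all genes were higher and 17.1% lower. With G-CSF 1 was higher and 15 lower, where 16.5% of all genes were higher and 14.9% lower. The count of 4 became 2 without unstimulated GY118F replicate 2, without unstimulated control replicate 1 or 2, and under the floor. Phlda3 stood at -0.64 ± 0.08 (SE) without and -1.02 ± 0.09 (SE) with G-CSF, Apaf1 at -0.36 and -0.55, and Ak1 at -0.50 without G-CSF. Rprm went the other way, at 0.61 ± 0.06 (SE) and 0.99 ± 0.06 (SE).

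After G-CSF 18.4% of all genes rose and 22.9% fell in GY118F EpiSCs, and 19.9% rose and 24.0% fell in control EpiSCs. Of 23 genes that regulate p53, 16 were measured, of which 7 rose and 2 fell in GY118F EpiSCs and 6 rose and 1 fell in control EpiSCs. The genes that fell were Trp53bp1, which encodes the damage-response protein 53BP1, by 0.30 ± 0.08 (SE) in GY118F EpiSCs, and the checkpoint kinase gene Chek2, by 0.28 and 0.20 in GY118F and control EpiSCs, and both were named after their values were seen. Without stimulated GY118F replicate 3 the 7 became 4, without stimulated GY118F replicate 2 Trp53bp1 was not called, and Chek2 was not called in control EpiSCs without unstimulated control replicate 2 or 3 or stimulated control replicate 3. The difference of the responses was called for 1 of the 16, downward, where 2.18% of all genes were called downward. It was Trp53bp1, at -0.42 ± 0.11 (SE) (limma adjusted p = 0.0418), and its change of 0.12 in control EpiSCs did not pass the test. This call was lost under the floor, with a replicate block and without most single arrays (limma adjusted p up to 0.193 without stimulated GY118F replicate 2). Hipk2, the kinase that phosphorylates p53, rose by 0.53 ± 0.09 (SE) in GY118F and 0.52 ± 0.08 (SE) in control EpiSCs, and was higher in unstimulated GY118F EpiSCs by 0.66 ± 0.08 (SE). Ppp1r13b, whose product ASPP1 directs p53 to death genes, rose by 0.42 and 0.64, and the deacetylase gene Sirt1 by 0.40 and 0.35. Usp7, which encodes the deubiquitinase of Mdm2 and p53, rose by 0.37 in GY118F EpiSCs. Its change of 0.11 in control EpiSCs did not pass the test, and the difference of 0.26 was not called (limma adjusted p = 0.0729).

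Partners and relatives of p21 were set beside Cdkn1a. Of all genes 18.4% rose and 22.9% fell after G-CSF in GY118F, and 19.9% rose and 24.0% fell in control EpiSCs. Of 11 cyclins, kinases and other partners 10 were measured, of which 3 rose and 1 fell in GY118F and 5 rose and 1 fell in control EpiSCs. The gene that fell in GY118F EpiSCs was Ccnd3, at -0.27, and in control EpiSCs Cdk1, at -0.15 ± 0.06 (SE) (limma adjusted p = 0.0476, named after its value was seen). The Cdk1 call was lost in 11 of the alternatives, among them the replicate block, the floor, trend and robust moderation and leaving out any 1 unstimulated control array (limma adjusted p up to 0.147). Ccnd1, which encodes cyclin D1, rose by 0.86 ± 0.06 (SE) and 0.66 ± 0.05 (SE) and was lower in unstimulated GY118F EpiSCs by 1.03 ± 0.05 (SE), while Ccne1 rose by 0.71 and 0.74 and Ccne2 by 0.52 and 0.47. Ccnd2, which encodes cyclin D2, changed by 0.13 in GY118F EpiSCs, which did not pass the test, and rose by 0.96 ± 0.08 (SE) in control EpiSCs, and the difference of -0.83 was called (limma adjusted p = 0.00179).

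Of 6 other inhibitors of cyclin-dependent kinases 4 were measured, and 0 rose in either line by limma, at an adjusted or an unadjusted p under 0.05. By the adjusted p 18.4% of all genes rose in GY118F and 19.9% in control EpiSCs, and by the unadjusted p 22.2% and 23.7%. Cdkn1c, which encodes p57, fell by 0.25 and 0.39 and was lower in unstimulated GY118F EpiSCs by 1.43 ± 0.07 (SE). Cdkn1b, which encodes p27, changed by -0.10 in GY118F EpiSCs, which did not pass the test, and fell by 0.18 in control EpiSCs. The nearest relative of Trp53inp1, Trp53inp2, rose by 0.16 and 0.15 in GY118F and control EpiSCs.

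Genes that p21 is known to repress through the DREAM complex were listed too, and 14 of 19 were measured. In GY118F EpiSCs 2 rose and 5 fell, and in control EpiSCs 3 rose and 1 fell. The shares of all genes that rose and fell were 18.4% and 22.9% in GY118F, and 19.9% and 24.0% in control EpiSCs. Plk1, a kinase of mitosis, fell by 0.64 ± 0.08 (SE) and 0.26 ± 0.07 (SE), while Aurkb fell by 0.54 and Cdc25c by 0.41 in GY118F EpiSCs and changed by -0.17 and -0.14 in control EpiSCs, which did not pass the test. The difference of the responses was called for 0 of these 14 genes by limma, with 0 higher and 7 lower at an unadjusted p under 0.05 where 8.89% of all genes were lower by that measure, and for Plk1 it was -0.38 ± 0.10 (SE) (limma adjusted p = 0.0517). The 5 falls became 3 without stimulated GY118F replicate 3, and the 2 rises became 0 without unstimulated GY118F replicate 2 or 3 or stimulated GY118F replicate 2. The 1 fall in control EpiSCs became 2 with the replicate block, with array weights, and on leaving out unstimulated GY118F replicate 3, either stimulated GY118F array or stimulated control replicate 1 or 2, and it became 4 with only the groups compared.

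Of 13 partners and effectors of the GADD45 proteins 10 were measured, of which 0 rose and 3 fell in GY118F EpiSCs by limma, at an adjusted or an unadjusted p under 0.05. By the adjusted p 18.4% of all genes rose and 22.9% fell in GY118F EpiSCs, and 19.9% rose and 24.0% fell in control EpiSCs. By the unadjusted p 22.2% of all genes rose in GY118F EpiSCs. In control EpiSCs 1 of the 10 rose and 4 fell by the adjusted p. The 1, Pcna, became 2 with the replicate block, with only the groups compared and when unstimulated GY118F replicate 1 was left out. It became 0 without unstimulated control replicate 1 or 3 or stimulated control replicate 2 or 3, and the 4 became 2 without any 1 unstimulated control array or stimulated control replicate 3. Under the floor they became 0 and 2. The JNK genes Mapk8 and Mapk9 fell in both lines, with changes of -0.45 and -0.27 for Mapk8 and -0.23 and -0.34 for Mapk9, as did the p38 activator gene Map2k6, with -0.33 and -0.16. Of 5 ATG8 genes, whose products Trp53inp1 binds, 4 were measured, of which 0 rose and 1 fell in each line, beside the shares of all genes above. Gabarap fell by 0.34 ± 0.05 (SE) in control EpiSCs and changed by -0.14 in GY118F EpiSCs, which did not pass the test. Gabarapl1 fell by 0.59 ± 0.09 (SE) in GY118F EpiSCs and changed by -0.10 in control EpiSCs, which did not pass the test, and the difference of -0.49 was called (limma adjusted p = 0.0435).

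The genes whose values ran most like those of the brightest Cdkn1a, Trp53inp1 and Gadd45g probes were found by Pearson's r over the 11 arrays among 2741 probes whose group means spanned at least 0.5. The arrays fall into 4 groups that the points share, so r describes the order of the groups and no p is given. Most like Cdkn1a were Mmp25 (r = 0.994), Ccnd1 (r = 0.991), G3bp2 (r = 0.989), Ski (r = 0.988) and Knop1 (r = 0.982). Most like Trp53inp1 were Slc7a7 (r = 0.993), Obi1 (r = 0.991), Ass1 (r = 0.991), Atad3a (r = 0.990) and Xist (r = 0.988), and most like Gadd45g were Tesk1 (r = 0.991), Dpysl4 (r = 0.989), Dusp4 (r = 0.988), Efnb1 (r = 0.987) and Chmp6 (r = 0.986). Xist, the noncoding RNA of the inactive X chromosome, was at 7.17 ± 0.02 (SD, n = 3) and 7.20 ± 0.02 (SD, n = 2) in unstimulated and stimulated GY118F EpiSCs and at 9.53 ± 0.17 (SD, n = 3) and 9.84 ± 0.28 (SD, n = 3) in the control groups. It thus separated the lines as Trp53inp1 did, and its part in the line differences of the members was not tested.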

How the data were processed

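RNA levels were measured on 11 Illumina mouse arrays. The deposited log2-like values were made by the authors with lumi (per the submitters' processing notes). The version of lumi was not given in the sources used here. Total RNA was extracted with Qiagen RNeasy and labelled with biotin, per the labels' protocols. The arrays' sorted values differed by at most 0.00116, so they had been quantile-normalized. Whether the scale is plain log2 or lumi's variance-stabilizing one is not stated, and in the latter case changes of dim probes are understated. Probes were named through the platform annotation, in which 13711 probes had 1 symbol, 5 several and 2002 none.

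All 15718 probes and 11 arrays were fitted with limma 3.58.1 in R 4.3.3 (lmFit, eBayes, no block), with two-sided tests and p-values adjusted by Benjamini-Hochberg over every probe (threshold 0.05). There were 5 contrasts, and 2 that order the 4 groups were added after seeing the data. The labels give the stimulated GY118F arrays replicate numbers 2 and 3 in their source names and 1 and 2 in their titles; the former are used. Members and lists were chosen with earlier results of these data known. From each list the 4 largest changes in each G-CSF contrast were considered for naming, called or not, and likeness was sought among probes of 1 gene. In simulated data 37, 53, 9, 58 and 29 of 100 probes changed 1.2-fold were recovered, in the order G-CSF in GY118F, G-CSF in control, their difference, and the lines without and with G-CSF, and 89, 88, 58, 93 and 88 of 100 changed 1.4-fold. No other probe differed between the groups in the simulated data. In the measured data 17.6% of all probes rose and 19.5% fell after G-CSF in GY118F EpiSCs. The adjusted p depends on how many probes change, so the recovered counts need not hold for the measured data. Alternatives were a replicate block, other filters, a floor, other normalization and moderation, and leaving out each array.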

Additional observations from a re-analysis of the deposited data

Results flagged for a closer look

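In 12 of the members and listed genes the response to G-CSF differed between the lines by the test of the difference itself (limma adjusted p under 0.05), with the difference given as GY118F minus control on the log2 scale. Among the members these were Gadd45a, at 0.54, and Gadd45g, at 0.43. Among the p53 targets Rprm differed by 0.38 and Ak1 by -0.50, and among the regulators of p53 Trp53bp1 differed by -0.42. The cyclin gene Ccnd2 differed by -0.83 and the ATG8 gene Gabarapl1 by -0.49. The STAT3 targets differed by 3.18 for Socs3, 2.21 for Stat3 and 1.61 for Junb. The epiblast marker Otx2 differed by 0.39, and the trophoblast marker Cdx2 by -0.77, with rises of 0.46 in GY118F and 1.23 in control EpiSCs. Over all genes 3.89% were called higher and 2.18% lower for this difference. No group held 4 arrays, so single arrays were not tested for standing apart.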

How the results depend on the processing

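No member probe changed its direction while called under any alternative. With the dimmer 50% of probes left out, all probes called higher and lower numbered 1783 and 1977 for G-CSF in GY118F EpiSCs, 288 and 149 for the difference of the responses, 1484 and 1522 between the unstimulated lines and 1384 and 1402 with G-CSF, and 2022 were lower for G-CSF in control EpiSCs, since fewer probes were tested; the member counts became 1 lower in control EpiSCs, 1 higher between the unstimulated lines and 2 higher with G-CSF. With 1 probe a gene the members called numbered 5 higher in each line after G-CSF, 1 higher and 4 lower between the unstimulated lines and 2 higher and 4 lower with G-CSF. With the floor 1 member was lower in control EpiSCs and 1 higher between the unstimulated lines. Leaving out 1 array gave 310 to 577 higher and 174 to 397 lower calls for the difference of the responses over all probes, the 310 without stimulated GY118F replicate 2, the 174 without replicate 2 of the unstimulated GY118F cells and 177 without replicate 2 of the unstimulated control cells. Member counts then ranged from 8 to 11 higher for G-CSF in GY118F, 9 to 11 higher for G-CSF in control, 2 to 3 higher for the difference, 7 to 8 lower between the unstimulated lines, and 3 to 4 higher and 7 to 9 lower with G-CSF. Deviations from the group mean correlated over 0.1 between same-numbered samples in 7 of 15 pairs (9 of 15 by title numbers). With 2 or 3 arrays a group such deviations depend on each other, so this does not settle whether the numbers pair the samples. With the replicate block by the numbers used the members called were 10 higher and 0 lower in GY118F, 11 and 2 in control EpiSCs, 2 and 0 for the difference, 2 and 7 between the unstimulated lines and 3 and 8 with G-CSF. With the block by title numbers 12 were higher in GY118F EpiSCs. Those added were Ccng1 ILMN_2702233 (limma adjusted p = 0.0326) and Gadd45a ILMN_2947568 (limma adjusted p = 0.0336). All probes called with the block by the numbers used were 2672 and 2885, 3200 and 3266, 475 and 238, 2437 and 2400, and 2208 and 2032 in the same order. The number of arrays limits what could be detected, most of all for the difference of the responses.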
